A study of Mus musculus with 6 samples.

Results

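Expression of autosomal long intergenic RNA (lincRNA) genes was described in cultured mouse aortic cells, in 3 female and 3 male libraries. The cells were labelled as endothelial and as a knockout of the pluripotency factor Oct4. A gene belonged to the set if the deposited table gave it the biotype lincRNA, placed it on chromosomes 1 to 19, and gave it at least 2 CPM (counts divided by the library's total, times 1e6) in 3 or more of the 6 libraries. The imprinted RNAs Meg3, Rian, Mirg, H19, Airn and Kcnq1ot1 were left out by name, of which 2 (Meg3 and Mirg) were over that level. The rule left 146 genes of the 54532 in the table and of its 4915 autosomal lincRNA genes, of which 1619 had a count in any library. The members were thus chosen by their measured level in these libraries. A gene at this level in 1 sex only had to differ between the sexes, and such genes are described by their values without a test. Counts of calls over gene lists include such genes, since a list takes its genes by name, and those counts are a description.

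All 6 libraries carried the same genotype, an endothelial cell-specific knockout of Oct4, and came from untreated primary cultures set up from the aortas of female and of male mice. The driver of the deletion and the age of the animals are not given in the labels, and wild-type cells were not analysed here, which leaves the sexes of the knockout to be compared with each other. Whether the 3 libraries of each sex represent separate animals or cultures is not stated in the labels, so a p-value here reflects the spread among these samples alone, and that spread may be technical. Polyadenylated RNA was selected before sequencing, and the labels leave the strand of the libraries open, so reads of a gene and of its antisense partner could not be told apart.

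Long intergenic RNAs are transcripts without a long reading frame whose genes lie between protein-coding genes. Some build nuclear bodies, as Neat1 does for paraspeckles, some act as hosts from whose introns or exons small nucleolar RNAs or microRNAs are cut, and some sit beside developmental transcription factor genes whose expression they share or modulate. Many others have no assigned function and carry only a serial name.

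Total counts were between 19299742 and 23064738 per library. Levels below are CPM over the effective library size, the total multiplied by its TMM scaling factor, and are given as mean ± SD with n = 3 libraries per sex unless single libraries are listed. A log2 fold change is female over male with its standard error, and a gene was called where the adjusted p of edgeR's quasi-likelihood test over all 14814 tested genes was under 0.05. Of 12 endothelial marker genes, 8 were under 1 CPM in every library and Cldn5 and Emcn had 0 counts in all 6, while Eng and Flt1 were at 10 CPM or more throughout. Most of these markers thus did not bear out the endothelial label. All 8 fibroblast markers were at 10 CPM or more in every library, and their summed level was 33151 to 35771 CPM in the female and 20374 to 22146 CPM in the male libraries. Summed smooth muscle markers ranged from 3.81 to 5.77 CPM in female and from 26.95 to 31.3 CPM in male libraries, with Myocd at 0 throughout. The summed endothelial markers were also apart, at 146 to 174 CPM in female and 258 to 324 CPM in male libraries, as were the pericyte (425 to 442 and 709 to 750 CPM), adipocyte (7.78 to 11.0 and 32.1 to 40.9 CPM), leukocyte (5.16 to 8.09 and 3.17 to 4.15 CPM) and mesothelial and epithelial markers (0.205 to 0.911 and 2.60 to 3.63 CPM). The pericyte sum hides a split among its 5 genes, of which only 1 was at 10 CPM or more in every library. By the test, 3 of the 5 were higher on the female side and 2 were lower. Their median log2 fold change was 3.81, with a range from -8.40 to 5.08. The endothelial and fibroblast sums also hold genes of both directions. Of the 4 tested endothelial markers, 1 was higher and 2 were lower in female cells (log2 from -1.46 to 1.06). Of the 8 fibroblast markers, 6 were higher and 1 was lower. Among all 14814 tested genes, 30.9% were higher and 29.8% lower. The part of all these cell populations in the lincRNA differences was not tested. Fewer cells of a type and less RNA per cell cannot be told apart in bulk libraries.

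Most members were weakly expressed. The median of their mean levels was 3.985 CPM. A total of 86 members averaged under 5 CPM, 37 averaged 10 CPM or more and 3 averaged 100 CPM or more. Their median length was 2519 bases (quartiles 1641 and 4318), against 982 bases for the other autosomal lincRNA genes and 4574 bases for the autosomal protein-coding genes at the same level. Median GC content was 47.7%, 46.5% and 50.2% in these groups. A total of 24 members had a single exon, and the median was 3 exons in the transcript with the most. By name, 62 members were numbered Gm genes and 49 were RIKEN clones. They lay on every autosome, from 5 on chromosomes 4, 7, 12 and 18 to 15 on chromosome 5.

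The biotype in the deposited table did not always match RefSeq. Of the 104 members with a RefSeq entry (GRCm38.p6) under the same symbol or as a synonym, 90 were long noncoding RNA genes there, 11 were protein-coding genes and 3 were of a pseudogene class (1 pseudogene and 2 transcribed pseudogenes). Among the 11 were 1810058I24Rik, 6330403K07Rik, Tmem250-ps and Zfp469. Exons of 102 members shared no base with another annotated gene, whereas 36 shared bases with a gene on the opposite strand and 11 with a gene on the same strand, and reads over those bases are uncertain.

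The level was reached in all 6 libraries by 69 members and in 3 to 5 libraries, with both sexes among them, by 42. It was reached only in female libraries by 19 members and only in male libraries by 16. All 146 passed the low-count filter of the test. On the scale of the rule (CPM of the library total), the members just inside the threshold were Gm26797 and Gm26660, with the third highest of their 6 values at 2.04 and 2.06. Just outside were Gm26773 at 1.99 and Gm10825 at 1.97. Gm10825 had 0 counts in each female library and 2.07, 1.97 and 3.08 in the male libraries, so the set leaves out genes with a pattern like that of its own members.

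In the female libraries, the members together took 0.386%, 0.379% and 0.362% of all counts. Their share in the male libraries was 0.280%, 0.265% and 0.293%. The sexes did not overlap. Malat1 alone made up 38.0% ± 2.46 of the members' counts in female and 17.5% ± 1.51 in male libraries. Neat1 made up 20.4% ± 1.80 and 19.7% ± 0.80 of them, and 2900097C17Rik, the mouse Norad gene, 8.48% ± 0.14 and 12.2% ± 0.43. Without Malat1, the share of all counts was 0.233% ± 0.0049 in female and 0.230% ± 0.00861 in male libraries, so that the higher female share was no longer seen. Without the 3 most abundant members it was 0.125% ± 0.00301 and 0.141% ± 0.00247, with the male libraries higher.

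**Figure D1:**
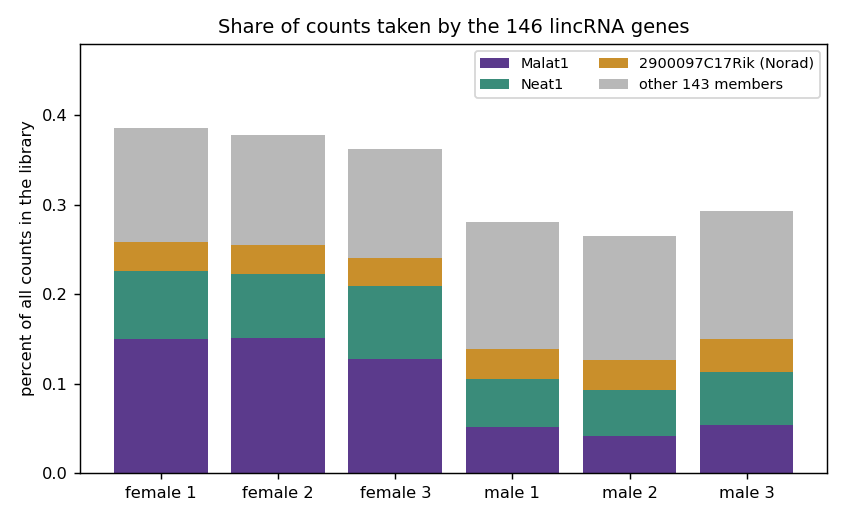
Percent of all counts taken by the 146 lincRNA genes in each of the 6 libraries, split into Malat1, Neat1, 2900097C17Rik and the other members. The female bars reach 0.362% to 0.386% and the male bars 0.265% to 0.293%, and the Malat1 segment is the part that differs most.

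Among the 69 members at the level in all 6 libraries, which needed no difference between the sexes to enter the set, 20 were called higher in female cells, 14 were called lower and 35 were not called. Of the 10610 autosomal genes at the same level in all 6 libraries, 64.6% were called, 31.6% higher and 33% lower, so the called share of the members (34 of 69) was not above this background. The sexes did not overlap in 45 of the 69, beside 70.8% of those 10610 genes. Their median log2 fold change was 0.09, against -0.03 for the 10610, and the median size of the change without its sign was 0.457 and 0.438. The change was at least 2-fold higher in female cells in 7 members and at least 2-fold lower in 2, with a range from -5.46 to 3.00 on the log2 scale. The share of changes of that size among the 10610 genes was not counted, so no direction particular to the members is read from this. Of the 49 among these 69 members whose exons shared no base with another gene, 14 were higher and 11 lower. When libraries were scaled by total counts only, which moved the median of all tested genes by -0.117 on the log2 scale, 14 of the 69 were higher and 22 lower.

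**Figure D2:**
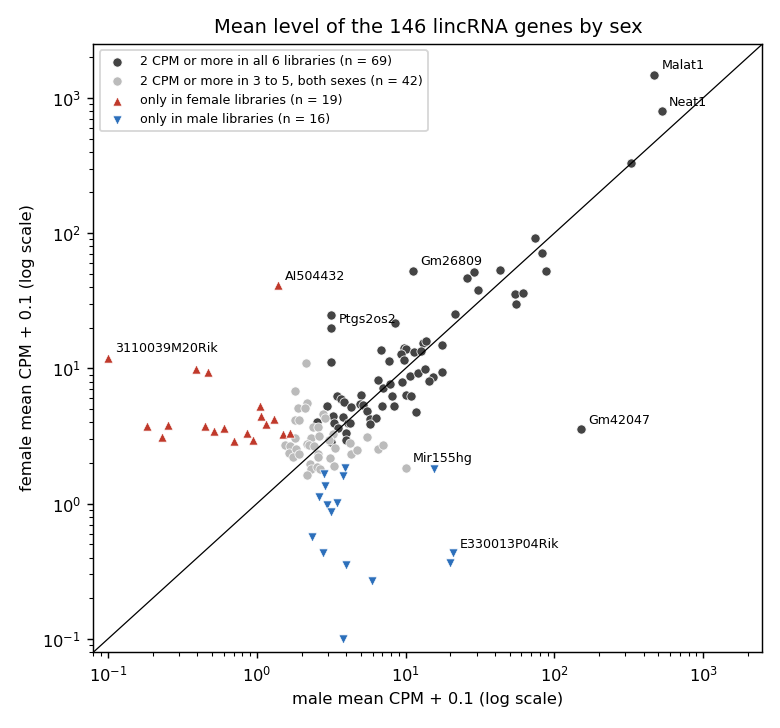
Mean CPM of each of the 146 lincRNA genes in the 3 female libraries (vertical axis) against the 3 male libraries (horizontal axis), both plus 0.1 and on log scales, with the line of equal level. Symbols separate the 69 genes at 2 CPM or more in all libraries, the 42 at that level in 3 to 5 libraries of both sexes, and the 19 and 16 at that level in 1 sex only. Gm42047 lies farthest below the line among the 69.

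Malat1, a nuclear-retained RNA of the splicing speckles, was the most abundant member (chr19:5795690-5802672, minus strand, mm10). It stood at 1550, 1594 and 1317 CPM in the female libraries and at 498.9, 404.8 and 504.5 CPM in the male libraries. Every female library was above every male library, and the log2 fold change was 1.66 ± 0.10 (edgeR adjusted p = 2.28e-10). Divided by gene length, its level was 213 RPKM (CPM per 1000 bases of gene length) in female and 67.2 RPKM in male cells, the highest of all members averaged over the libraries. Neat1, its neighbour on chromosome 19 and the scaffold of paraspeckles, was at 789.6, 757.7 and 838.0 CPM in the female and 514.3, 496.0 and 570.9 CPM in the male libraries. The groups were again separate, with a log2 fold change of 0.59 ± 0.08 (adjusted p = 5.86e-06). This call was lost when fold changes were corrected for gene length and GC content (log2 0.05, adjusted p = 0.62), whereas Malat1 kept a log2 fold change of 1.23 (adjusted p = 3.63e-10). Polyadenylated RNA was selected, so the levels of Malat1 and Neat1 cover only the RNA that this selection captured. Forms without a poly(A) tail were not measured.

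Other widely expressed RNAs of this list included 1 member that did not differ beyond its spread, 1 whose direction depended on the processing and 1 that was called only under some settings. 2900097C17Rik (Norad), a cytoplasmic RNA that binds Pumilio proteins, was at 335.5, 336.5 and 323.4 CPM in female and 315.4, 322.7 and 341.2 CPM in male libraries. These ranges overlapped, and the log2 fold change was 0.02 ± 0.07 (adjusted p = 0.799). 1700020I14Rik, listed by RefSeq as Oip5os1 and known as Cyrano, was at 91.6 ± 8.18 CPM in female and 73.6 ± 8.34 CPM in male cells (log2 0.31 ± 0.10, adjusted p = 0.00998). Its direction was not stable, since the length and GC correction gave -0.25 with an adjusted p of 0.00707, and the call was lost with total counts (adjusted p = 0.0924) and without male replicate 2 (0.0628). Pvt1, a long RNA gene beside Myc, was at 14.7 ± 0.82 CPM in female and 17.4 ± 1.32 CPM in male cells and was not called (log2 -0.25 ± 0.13, adjusted p = 0.116). With the length and GC correction it was called lower (log2 -0.565, adjusted p = 0.00115), and upper quartile scaling and total counts also gave a call (adjusted p = 0.0421 and 0.0235). Of the 9 tested genes in the list of nuclear body and widely expressed long RNAs, which held 6 members, 4 were higher, 2 lower and 3 not called, beside 30.9% higher and 29.8% lower among all 14814 genes. The lowest log2 fold change in the list was that of Lockd (log2 -1.70 ± 0.38), a member at the level only in male libraries. With the length and GC correction these counts became 1 higher and 5 lower, and with total counts 2 higher and 3 lower.

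The largest difference among members present in every library was that of Gm42047 (chr8:121833247-121841178, plus strand, mm10), a gene of 4 exons at most whose function is not assigned. It was at 3.57, 3.22 and 3.54 CPM in the female libraries and at 158, 141 and 156 CPM in the male libraries. The log2 fold change was -5.46 ± 0.11 (adjusted p = 7.52e-16), a level 43.9-fold higher in male cells, and in male cells it was among the abundant members. On the side of the female cells, AC130815.2 was at 26.5, 22.2 and 25.01 CPM against 3.36, 2.82 and 3.00 CPM in male libraries (log2 3.00 ± 0.16, adjusted p = 5.76e-11). Gm26809 was at 50.6, 58.6 and 49.1 CPM in female and 10.6, 9.82 and 12.8 CPM in male libraries (log2 2.25 ± 0.12, adjusted p = 1.01e-10). Neither gene has a function assigned to it, and in both the lowest female library was above the highest male library.

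Smaller differences were seen in several others of these 69. 6330403K07Rik, a protein-coding gene in RefSeq, was higher in female cells at 11.0 ± 1.00 against 3.07 ± 0.45 CPM (log2 1.83 ± 0.20, adjusted p = 5.25e-07). E430024I08Rik was higher at 21.5 ± 4.22 against 8.38 ± 2.86 CPM (log2 1.35 ± 0.21, adjusted p = 3.55e-05). Lower in female cells were Gm20300 (4.63 ± 0.66 against 11.6 ± 2.12 CPM, log2 -1.32 ± 0.20), 2010320M18Rik (8.49 ± 2.11 against 15.1 ± 1.81 CPM, log2 -0.83 ± 0.18) and Tmem250-ps (36.2 ± 1.54 against 61.4 ± 6.61 CPM, log2 -0.76 ± 0.10). Under the length and GC correction 2010320M18Rik was no longer called (log2 -0.35, adjusted p = 0.0717). The name of Tmem250-ps marks it as a pseudogene, so reads may be shared with its parent gene, and the sharing was not tested. 1810058I24Rik, which RefSeq lists as a protein-coding gene, was at 71.6 ± 3.77 CPM in female and 82.0 ± 8.34 CPM in male cells and was not called (adjusted p = 0.0734). A call of lower was made under upper quartile scaling, under total counts and without male replicate 3 (adjusted p = 0.0159, 0.00662 and 0.0198).

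Gm26917 ends 12 bases before Rn18s-rs5, an entry of RefSeq that is related to the 18S ribosomal RNA, on chromosome 17. It was at 58.4, 44.1 and 55.5 CPM in female and at 91.9, 79.2 and 94.0 CPM in male libraries (log2 -0.75 ± 0.11, adjusted p = 1.21e-05). The sexes did not overlap, but the labels do not say how reads from the repeated ribosomal genes were handled, so its value is uncertain. Gm10076, a pseudogene in RefSeq and only 384 bases long, was the second most abundant member per length at 88.9 RPKM over all libraries. It varied within each sex, with 57.9, 39.1 and 16.3 CPM in female and 20.7, 42.0 and 28.8 CPM in male libraries, and was not called (adjusted p = 0.392).

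**Figure D3:**
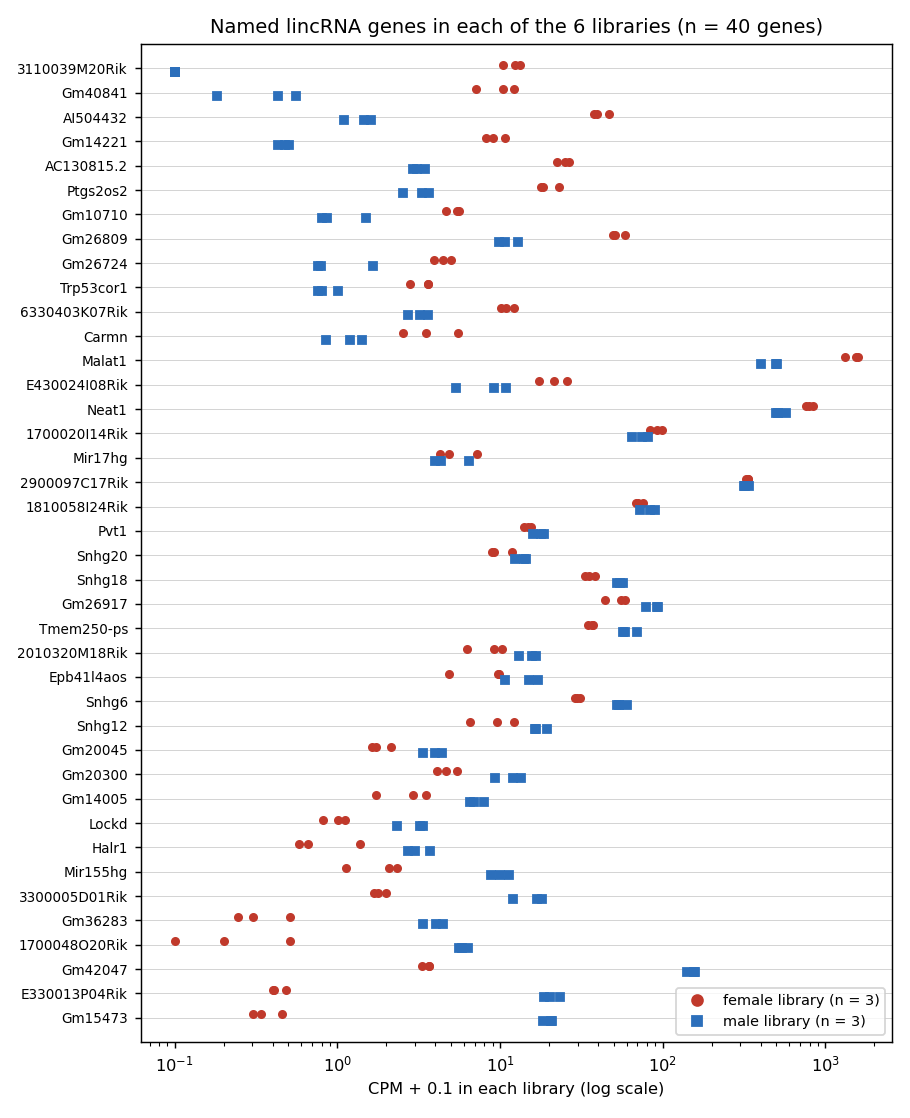
CPM plus 0.1 on a log scale in each of the 3 female and 3 male libraries for the 40 named members, ordered by fold change from lower in female (bottom) to higher in female (top). Libraries of a sex lie close together for most genes, and the points of the sexes separate toward both ends of the order and mix in the middle, as for 2900097C17Rik and Mir17hg.

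Small nucleolar RNAs (snoRNAs) guide chemical modification of ribosomal RNA and are cut from the introns of host transcripts. The deposited table places an annotated snoRNA within 7 members. The 5 of them that belong to the list of snoRNA hosts were each called lower in female cells, and the other 2 were not called. These 2 were 2700038G22Rik, with Snord93, at 2.27 ± 0.27 CPM in female and 1.54 ± 0.49 CPM in male cells (log2 0.54 ± 0.37, adjusted p = 0.213), and 2900076A07Rik at 2.85 ± 0.47 and 3.91 ± 2.53 CPM (log2 -0.45 ± 0.37, adjusted p = 0.318). The entry within 2900076A07Rik is named Mir1839, and it is also counted among the microRNA genes below. Snhg6, in which Snord87 lies, was at 29.6, 30.9 and 28.9 CPM in female and 60.3, 52.0 and 53.5 CPM in male libraries (log2 -0.89 ± 0.10, adjusted p = 5.15e-07). Snhg12, with Snora16a, Snora44, Snora61 and Snord99 within it, was at 9.50, 6.40 and 12.1 CPM in female and 16.6, 16.4 and 19.2 CPM in male libraries (log2 -0.90 ± 0.19, adjusted p = 0.00052). In neither of these genes did a female library reach the lowest male library. Snhg18, the host of Snord123, was at 35.4 ± 2.60 CPM in female and 54.5 ± 2.31 CPM in male cells (log2 -0.62 ± 0.09, adjusted p = 2.16e-05). Epb41l4aos was at 8.03 ± 2.83 and 14.2 ± 3.35 CPM (log2 -0.83 ± 0.23, adjusted p = 0.00571), and Snhg20 at 9.88 ± 1.58 and 13.5 ± 1.08 CPM (log2 -0.45 ± 0.16, adjusted p = 0.0213).

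Of the 5 calls, those of Epb41l4aos and Snhg20 were absent after correcting for length and GC (log2 -0.34 and -0.21, adjusted p = 0.212 and 0.243). Snhg20 was also not called without female replicate 1, female replicate 2 or male replicate 1 (adjusted p = 0.0946, 0.0627 and 0.0747). The wider list of snoRNA hosts, most of whose genes have another biotype in the table, had 16 tested genes, of which 0 were higher, 12 were lower and 4 were not called, against 30.9% higher and 29.8% lower among all 14814 genes. Its median log2 fold change was -0.74, against -0.01 for all genes tested. With the length and GC correction 11 of the 16 were lower and the median was -0.52, and 0 were higher under any of the 12 alternatives. The hosts outside the set included Gas5 (78.1 ± 3.25 against 193 ± 21.6 CPM, log2 -1.31 ± 0.09) and Zfas1 (25.8 ± 3.02 against 59.1 ± 5.44 CPM, log2 -1.20 ± 0.11). The level of a host transcript is not the level of its snoRNAs, which were not measured in these polyadenylated libraries.

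MicroRNA genes lay within 11 members, 18 genes with 33 mature forms. A mature microRNA pairs with target messages mainly through its seed, bases 2 to 8 from the 5′ end, and those letters are in capitals in the RefSeq sequences below (GRCm38.p6). They are shown for Mir155hg, Mir17hg, 6720427I07Rik, AL805899.1, E130102H24Rik and C78859. The mature microRNAs themselves were not measured.
miR-155-5p: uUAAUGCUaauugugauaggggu
let-7d-5p: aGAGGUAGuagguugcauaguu
miR-31-5p: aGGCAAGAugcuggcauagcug
miR-101a-3p: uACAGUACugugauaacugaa
miR-138-5p: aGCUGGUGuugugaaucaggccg
miR-17-5p: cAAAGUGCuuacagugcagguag
miR-20a-5p: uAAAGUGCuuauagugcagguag
miR-18a-5p: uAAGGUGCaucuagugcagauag
miR-19a-3p: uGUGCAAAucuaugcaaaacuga
miR-19b-3p: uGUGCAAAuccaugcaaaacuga
miR-92a-3p: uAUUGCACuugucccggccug

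The hosts of these microRNAs differed from each other in how they compared between the sexes. Mir155hg (chr16:84703167-84715245, mm10), the host of the inflammation-linked miR-155, was at 2.22, 1.02 and 1.97 CPM in female and at 9.95, 11.3 and 8.67 CPM in male libraries. All male libraries were above all female ones, by a fitted 5.69-fold. The male libraries alone would have placed it in the set, so this is a description. Mir17hg, the host of the growth-promoting cluster, was at 4.73, 7.11 and 4.202 CPM in female and 4.22, 3.88 and 6.37 CPM in male libraries, which overlapped (log2 0.14 ± 0.26, adjusted p = 0.657). In that cluster miR-17-5p and miR-20a-5p share the seed AAAGUGC, and miR-19a-3p and miR-19b-3p share GUGCAAA.

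Further hosts, chosen for the sequences they hold, were also weakly expressed. 6720427I07Rik, with let-7d, was lower in female cells at 6.21 ± 0.80 against 9.91 ± 0.42 CPM (log2 -0.67 ± 0.17, adjusted p = 0.00302). AL805899.1, with miR-31, was at 8.74 ± 1.34 and 10.6 ± 0.17 CPM and was not called (adjusted p = 0.16). E130102H24Rik, with miR-101a, was at 4.29, 3.89 and 3.90 CPM in female and 2.98, 0.604 and 1.56 CPM in male libraries. C78859, with miR-138, was at 3.38, 2.92 and 3.80 CPM in female libraries and at 0.19, 0 and 1.07 CPM in male libraries. Both genes reached the level through female libraries, and the female values lay above the male ones in each. Carmn, host of the miR-143 and miR-145 genes that mark smooth muscle, was another such gene, at 5.40, 3.43 and 2.43 CPM in female and 1.09, 0.755 and 1.31 CPM in male libraries. Of the 10 tested genes in the list of microRNA hosts, with 3 members, 4 were higher, 2 lower and 4 not called, beside 30.9% and 29.8% of all genes, and with the length and GC correction 2 were higher and 4 lower.

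The list of stress and immune response RNAs held 4 members, Mir155hg and the 3 that follow. Ptgs2os2, a long RNA gene near the prostaglandin synthase gene Ptgs2, was at 23.1, 18.4 and 17.8 CPM in female and 2.42, 3.22 and 3.57 CPM in male libraries. The groups were far apart (log2 2.68 ± 0.19, adjusted p = 2.06e-09). Ptgs2 itself, whose start lies 64.9 kb away, was at 808 ± 88.4 CPM in female and 177 ± 29.6 CPM in male cells (log2 2.19 ± 0.11, adjusted p = 4.13e-11). Trp53cor1 (lincRNA-p21), a p53 target next to Cdkn1a, was at 3.52, 2.71 and 3.49 CPM in female and 0.663, 0.705 and 0.904 CPM in male libraries, while Cdkn1a went the other way at 193 ± 7.70 against 240 ± 4.85 CPM (log2 -0.32 ± 0.07, adjusted p = 0.0014). Gm14005, listed by RefSeq as Morrbid and known as a repressor of the death gene Bcl2l11 in myeloid cells, was at 1.64, 2.81 and 3.39 CPM in female and 6.77, 6.40 and 7.85 CPM in male libraries. Bcl2l11 was at 54.0 ± 3.80 CPM in female and 26.4 ± 3.67 CPM in male cells (log2 1.03 ± 0.11, adjusted p = 4.55e-07). Ptgs2, Cdkn1a and Bcl2l11 were chosen for display after their values were seen. Of the 5 tested genes in the list of immune and stress response RNAs, 2 were higher, 2 lower and 1 not called, beside 30.9% and 29.8% of all genes. These counts include Trp53cor1, at the level only in female libraries. They also include Mir155hg and Gm14005, which their male libraries alone would have placed in the set.

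The 19 members that reached the level only in female libraries had fitted log2 fold changes from 1.06 upward. AI504432 was the most abundant of them, at 46.4, 38.0 and 39.3 CPM in female and 0.995, 1.51 and 1.36 CPM in male libraries. 3110039M20Rik (chr12:49389652-49407360, plus strand, mm10) was at 12.2, 10.4 and 13.2 CPM in female libraries and had 0 counts in each male library, a level at least 86.0-fold higher in female cells when the male libraries are set to 3 counts each. Gm40841 was at 6.995, 12.1 and 10.3 CPM in female libraries against 0.332, 0.453 and 0.0822 CPM in male ones. In the male libraries 3 counts amount to 0.123 to 0.151 CPM, so these values rest on few reads. Gm14221 (9.26 ± 1.30 against 0.370 ± 0.038 CPM), Gm10710 (5.14 ± 0.53 against 0.953 ± 0.385 CPM) and Gm26724 (4.35 ± 0.51 against 0.974 ± 0.509 CPM) followed. Gm10710 and Gm26724 share exon bases with the coding genes Dchs2 and Lemd2 on the other strand, and 3110039M20Rik shares bases with Gm43517 on its own strand.

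The 16 members at the level only in male libraries had fitted log2 fold changes of -0.82 or lower. E330013P04Rik (chr19:60144675-60162591, plus strand, mm10) was at 0.386, 0.307 and 0.304 CPM in female and 18.6, 20.1 and 23.4 CPM in male libraries. Gm15473 was at 0.241, 0.358 and 0.203 CPM in female and 18.2, 20.4 and 20.9 CPM in male libraries, and 3300005D01Rik at 1.88, 1.59 and 1.67 against 18.0, 16.7 and 11.9 CPM. These 3 were the most abundant of the male group. 1700048O20Rik was at 0.17 ± 0.213 CPM in female and 5.83 ± 0.38 CPM in male cells, Gm36283 at 0.252 ± 0.139 and 3.85 ± 0.54 CPM, and Gm20045 at 1.74 ± 0.27 and 3.80 ± 0.52 CPM. Lockd, a long RNA gene downstream of the cell cycle inhibitor gene Cdkn1b, was at 0.88 ± 0.151 and 2.87 ± 0.57 CPM. Halr1, a long RNA gene of the Hoxa cluster, was at 0.773 ± 0.440 and 3.05 ± 0.52 CPM. It was the only member in the list of long RNAs next to patterning genes, of which 9 were tested, 1 was higher, 4 were lower and 4 were not called, beside 30.9% higher and 29.8% lower of all genes.

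For 3 members at the level in 1 sex only, a transcription factor gene nearby was chosen for display after its values were seen. These pairs are a description, since the members entered the set through the sex in which they are high and the pairs were picked for their values. Gm43050 (chr5:119828448-119831920, minus strand, mm10) starts 748 bases from the start of Tbx5, a limb and heart factor, and runs in the opposite direction. It had 0 counts in each female library and was at 3.32, 4.53 and 3.25 CPM in the male libraries, at least 24.6-fold higher when female libraries are set to 3 counts each. Tbx5 likewise had 0 counts in each female library and was at 12.2, 9.92 and 11.0 CPM in the male libraries, at least 73.4-fold higher. Gm20554 (chr13:72626213-72628564, minus strand, mm10) starts 256 bases from Irx2, an Iroquois homeobox gene, also in the opposite direction. Gm20554 was at 2.41, 3.07 and 3.59 CPM in female and 0.0947, 0.302 and 0 CPM in male libraries, and Irx2 at 13.6, 15.3 and 14.7 CPM in female and 1.04, 0.252 and 0.657 CPM in male libraries.

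Gm53, a lincRNA gene of the Hoxb cluster, was at 3.14, 3.58 and 4.202 CPM in female and 0, 0.252 and 0 CPM in male libraries, and Hoxb9, 20.4 kb away, at 23.7 ± 1.22 and 0.0947 ± 0.164 CPM. 

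Across the set, 58 members had a protein-coding gene whose start lay within 10 kb of their own, 30 of them within 1 kb, and 29 pairs were divergent, with the transcripts running apart from each other. For members at the level in 1 sex only, the direction was fixed by the choice of members, so the neighbours are counted here without them. Of 8 tested neighbours of the other members called higher in female cells, 3 were higher (37.5%) and 2 lower (25%). Of 6 tested neighbours of those called lower, 1 was higher (16.7%) and 3 were lower (50%). For members not called, 26 neighbours were tested, of which 9 were higher (34.6%) and 7 lower (26.9%). These counts include members at the level in 3 to 5 libraries. For members at it in all 6, 7 neighbours of those called higher were tested, with 3 higher (42.9%) and 1 lower (14.3%). Of 4 tested neighbours of those called lower, 1 was higher (25%) and 3 were lower (75%). Pairs of tested autosomal protein-coding genes with starts within 10 kb were counted beside these, but were not held to the 2 CPM level. The neighbours of 693 genes called higher were higher in 36.8% and lower in 21.4%. Those of 1241 genes called lower were higher in 11.0% and lower in 50.2%. For 1356 genes not called, the neighbours were higher in 21.4% and lower in 36.3%. The shares with the same direction as the member, 37.5% and 50%, rest on 8 and 6 neighbours, too few to compare with those of coding pairs. Where both genes of a pair share exon bases, their values are uncertain.

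Single pairs are given as a description. The coding pairs above were not split by orientation, so no background stands beside the counts of divergent pairs. In 16 divergent pairs whose member was not called, 7 neighbours were higher and 3 lower, and in the 4 tested divergent pairs whose member was called lower and was not limited to 1 sex, 1 was higher and 2 lower. The 2 divergent pairs of that kind with a member called higher were Gm17586 with Mafg (168 bases apart, Mafg at 217 ± 13.4 against 107 ± 6.04 CPM) and 5031425E22Rik with Kmt2e (172 bases, Kmt2e at 222 ± 25.1 against 90.3 ± 13.4 CPM), and both neighbours were called higher. Neither member's own call was stable. Gm17586 (log2 0.55) was not called with total counts (adjusted p = 0.0533) or without female replicate 3, male replicate 1 or male replicate 3 (0.076, 0.0671 and 0.0926). 5031425E22Rik (log2 0.30) was not called with upper quartile scaling (0.0501), with total counts (0.108) or without male replicate 1 (0.0519). Of members at the level in 1 sex only, A330074K22Rik lies 226 bases from Gse1 (34.0 ± 3.10 against 12.7 ± 1.56 CPM). Gm15473, 153 bases from Tes, was low in female cells together with Tes (43.8 ± 7.12 against 161 ± 9.62 CPM, log2 -1.88 ± 0.10, adjusted p = 1.15e-10). Snhg18 and its neighbour differed in opposite directions, since Sema5a, a semaphorin gene 148 bases away, was higher in female cells (303 ± 62.3 against 143 ± 4.72 CPM, log2 1.08 ± 0.11, adjusted p = 3.14e-07) while Snhg18 was lower. Among pairs on the same strand, AI504432 and the potassium channel gene Kcna3, 3335 bases apart, were both high in female libraries, with Kcna3 at 10.03, 9.67 and 7.999 CPM in female and 0.0947, 0 and 0.411 CPM in male libraries. Klhdc4, 3678 bases from Gm42047, was lower in female cells by a log2 fold change of only -0.60 ± 0.13 (adjusted p = 0.000898), beside the -5.46 of Gm42047.

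**Figure D4:**
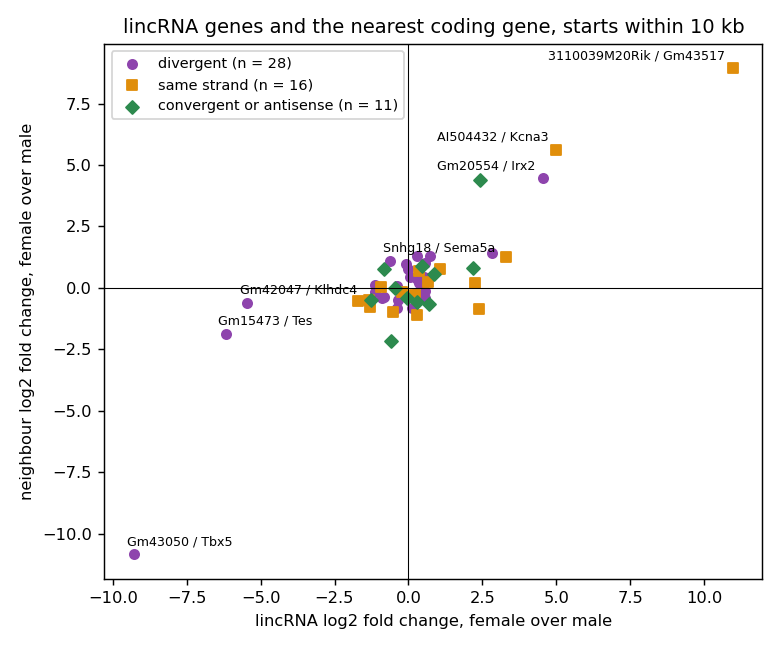
Log2 fold change (female over male) of each lincRNA gene (horizontal axis) and of the protein-coding gene with the nearest start within 10 kb (vertical axis), by the orientation of the pair. Points at the far ends, such as 3110039M20Rik with Gm43517 and Gm43050 with Tbx5, rest on 0 counts in 1 sex, and their fitted values depend on the prior count. Snhg18 with Sema5a lies in the quadrant of opposite directions.

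Promoter sequence was at hand from RefSeq (GRCm38.p6, 250 bases before to 50 bases after the start) for 82 members, 2 of them by synonym, and in 55 of these the RefSeq start lay within 100 bases of the start in the deposited table. Those of Gm20554, Snhg18 and 3110039M20Rik are printed, the first 2 as the shared start regions of a pair that went the same way and of a pair that went opposite ways, and the last as that of the member with no male count. They cover chr13:72628515-72628814 (minus strand), chr15:32244613-32244809 (minus strand, the part outside other transcripts' exons) and chr12:49389402-49389701 (plus strand). Capitals mark letters that match the CCAAT box (CCAAT), the GC box (GGGCGG) or the TATA box (TATAAA) on either strand, and matches that overlap were all kept.
Gm20554: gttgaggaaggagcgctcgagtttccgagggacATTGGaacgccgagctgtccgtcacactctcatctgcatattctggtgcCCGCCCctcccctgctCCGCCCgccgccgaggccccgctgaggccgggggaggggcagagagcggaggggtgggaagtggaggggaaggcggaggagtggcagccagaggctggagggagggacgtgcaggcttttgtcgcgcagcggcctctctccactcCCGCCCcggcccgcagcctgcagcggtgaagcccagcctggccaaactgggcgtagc
Snhg18: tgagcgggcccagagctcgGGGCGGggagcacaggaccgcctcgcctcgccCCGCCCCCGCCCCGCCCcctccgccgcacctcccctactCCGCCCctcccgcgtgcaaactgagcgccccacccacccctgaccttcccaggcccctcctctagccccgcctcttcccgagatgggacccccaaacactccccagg
3110039M20Rik: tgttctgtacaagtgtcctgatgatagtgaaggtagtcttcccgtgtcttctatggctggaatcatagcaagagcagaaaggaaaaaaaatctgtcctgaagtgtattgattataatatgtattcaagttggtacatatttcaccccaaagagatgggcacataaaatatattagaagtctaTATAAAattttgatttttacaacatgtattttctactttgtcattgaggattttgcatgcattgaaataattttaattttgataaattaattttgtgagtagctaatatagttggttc

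The start regions of Gm20554 and Snhg18 were rich in GC (69.7% and 75.6%) and held 24 and 17 CpG sites and 3 and 5 GC boxes. That of 3110039M20Rik was poor in GC (30.7%), with 1 CpG site and 1 TATA box. Over all 82 members the TATAAA letters occurred in 18.3%, the CCAAT letters in 37.8% and the GGGCGG letters in 45.1%. They occurred in 13.6%, 37.4% and 35.7% of all 32851 promoters in the table. Counting only the 55 promoters whose start matched, TATAAA was found in 5 of 25 for members at the level in all libraries, 2 of 16 for those at it in 3 to 5, 2 of 5 for those at it only in female and 0 of 9 for those at it only in male libraries, too few to compare. A match is a description of letters and not of a site in use.

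The fold changes of members followed a trend with gene length that was also seen in all genes. Tested genes averaging 5 CPM or more were split by length into 5 equal groups, and, going from short to long, the median log2 fold change was -0.40, -0.19, -0.00477, 0.16 and 0.39. The 69 members at the level in all libraries fell into these groups as 31, 14, 14, 6 and 4, with medians of -0.27, 0.10, 0.24, 0.30 and 0.45. Members of 2541 bases or fewer were thus lower in female cells at the median, like other short genes, and longer members higher. The last 2 groups hold few members. This trend moves with Neat1 (20771 bases), 1700020I14Rik (8306 bases) and the snoRNA hosts, whose lengths among the members are between 430 and 2795 bases, and its source was not tested.

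**Figure D5:**
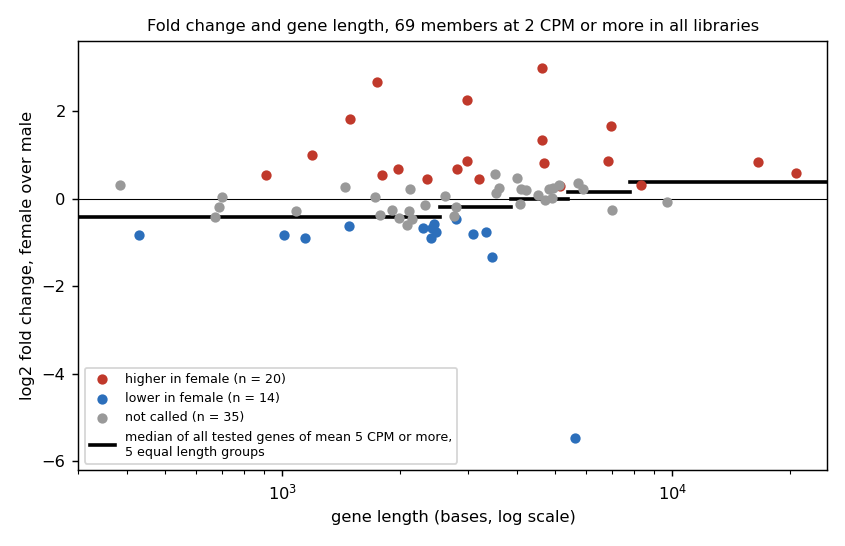
Log2 fold change (female over male) of the 69 lincRNA genes at 2 CPM or more in all 6 libraries against gene length in bases on a log scale, coloured by call. Black lines are the medians of all tested genes averaging 5 CPM or more in 5 equal length groups, which go from -0.40 to 0.39. Gm42047 at -5.46 lies far from all others.

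Genes of the proteins that bind, process or degrade such RNAs were read from the same fit. Of 20 tested paraspeckle proteins, which assemble on Neat1, 4 were higher, 3 lower and 13 not called in female cells. The background for this and the lists that follow is the 30.9% higher and 29.8% lower among all 14814 genes. Fam98a (29.0 ± 0.64 against 46.4 ± 1.18 CPM, log2 -0.68 ± 0.09), Smarca4 (log2 -0.34 ± 0.08) and Hnrnph3 (log2 -0.48 ± 0.11) were lower. The core protein genes Nono and Sfpq were not called (log2 -0.12 ± 0.07 and 0.16 ± 0.08). With the length and GC correction 2 of the list were higher and 11 lower, and with total counts 0 and 6. Among 21 nuclear speckle and splicing factors, the setting in which Malat1 resides, 7 were higher and 7 lower, near that background. Srrm2 (687 ± 75.4 against 421 ± 37.0 CPM, log2 0.71 ± 0.09) and Son (445 ± 37.3 against 252 ± 22.96 CPM, log2 0.82 ± 0.09), the scaffold proteins of speckles, were higher, and Sart1 was lower (log2 -0.64 ± 0.09).

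Among RNA decay factors, 6 of 19 nonsense-mediated decay genes were higher and 9 lower, again beside 30.9% and 29.8% of all genes. Smg1, the kinase of that pathway, was higher (161 ± 24.6 against 63.5 ± 6.90 CPM, log2 1.34 ± 0.11), as was the exonuclease gene Xrn1 (log2 0.87 ± 0.10), and the endonuclease gene Smg6 was lower (log2 -0.80 ± 0.08). Of 21 tested genes of the nuclear RNA exosome and its targeting complexes 3 were higher and 7 lower, the latter including Exosc2, Exosc5 and Exosc1 (log2 -0.88 ± 0.17, -0.67 ± 0.13 and -0.62 ± 0.13). Of 17 RNA export and microRNA processing genes 7 were higher and 6 lower, beside the same 30.9% and 29.8%. Ago2 (187 ± 27.9 against 73.2 ± 5.64 CPM, log2 1.35 ± 0.10) and Ago1 (81.8 ± 9.13 against 34.2 ± 1.67 CPM, log2 1.26 ± 0.10), whose proteins carry the microRNAs, and the export factor gene Thoc2 (log2 1.19 ± 0.12) were higher. With the length and GC correction the speckle list had 4 higher and 10 lower, the decay list 4 and 9, the exosome list 1 and 13, and the export and processing list 4 and 5. Each named gene had an adjusted p under 0.05 except Nono and Sfpq.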

How the data were processed

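Bulk RNA-seq of 3 female and 3 male libraries was read from 1 table of raw counts per gene, deposited by the authors without normalisation. Alignment used HISAT2 2.0.5 (mm10) and counting used featureCounts 1.5, per the submitters' processing notes. The strand setting and the treatment of multi-mapping reads are not given in the sources used here. Columns were matched to samples by library name, with 0 other sample columns. Exons came from GENCODE M21, in which 144 of the 146 members had identical coordinates.

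The sexes were compared with edgeR 4.0.16 in R 4.3.3 (filterByExpr, TMM, glmQLFit and glmQLFTest, two-sided, Benjamini-Hochberg over all tested genes, called at an adjusted p under 0.05). Standard errors were computed as |log2 fold change| over the root of the test's F statistic. The fit was run on simulated counts in which 200 genes were changed. Many more genes were called here, so the simulation does not show how the scaling behaves in these data. Where a sex had 0 counts in each library, the fold was computed against 3 counts in each library (0.123 to 0.154 CPM) and written as "at least", which covers counting error only. Between libraries of a sex, chi-square over degrees of freedom was 7.42 to 16, so each library was kept as a sample of its own. Whether animals or cultures were separate is not shown by this.

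The members and gene lists were chosen with earlier results of these data known. Named are the 8 most abundant members, members of the 5 long RNA lists, among called members at the level in all libraries with no overlap of the sexes, the 6 that changed most each way, the 6 most abundant of each group at the level in 1 sex only, the 2 nearest to the threshold on each side, the nearest coding neighbour within 10 kb, and 3 genes per protein list. Gas5, Zfas1, Nono, Sfpq, Gm10076, Gm53, Gm43050, Gm20554, A330074K22Rik, Gm17586 and 5031425E22Rik with their neighbours were chosen after their values were seen. Values of 2 neighbouring genes are not reported here. Symbols absent from the table were looked up as RefSeq synonyms (7 genes). Alternatives were DESeq2 1.42.0, upper quartile and total count scaling, no low-count filter, a length and GC correction, a replicate block, each library left out in turn, thresholds of 1 and 4 CPM, and members without shared exon bases.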

Additional observations from a re-analysis of the deposited data

How the results depend on the processing

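Of the 69 members at the level in all libraries, 34 were called, beside 64.6% of the autosomal genes at that level. Of these 34, 19 were called in the same direction under each of the 12 other fits. Members at the level in 1 sex only are not counted, since the choice of members fixed their direction. DESeq2 gave the same verdict for each of the 146 members. Of the 69 members at the level in all libraries, the number called lower in female cells was 22 with total counts only, against 14 in the reported fit, and 20 with upper quartile scaling. Over all genes, total counts gave 3956 higher and 5296 lower and upper quartile scaling 4170 and 4990, against 4580 and 4413. The fold change of 1700020I14Rik was -0.248 with the length and GC correction, the opposite of the reported direction, and the cause was not tested. A threshold of 1 CPM gave 236 members and one of 4 CPM gave 80, by construction. Without Malat1 the members' share of counts was 0.2329% in female and 0.2304% in male libraries. With members sharing exon bases left out, an alternative chosen after seeing the data, 14 were higher and 11 lower. With the replicate number as a block, 19 of the 69 were higher and 15 lower, and 4360 and 4165 of all genes. The labels do not say whether the numbers pair the libraries. The deviations of same-numbered female and male libraries correlated at -0.0177, -0.104 and -0.153 across 10807 genes, and no library correlated best with its own number. With 3 libraries per sex these correlations cannot decide whether libraries shared a batch. Members under 5 CPM, 86 of 146, rest on few reads, and at this depth a difference between values near 0.15 CPM was not detectable.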
